A study of Mus musculus with 20 samples.

Results

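The genes described here make cholesterol and fatty acids in mouse pancreatic islets, and most of them are known targets or regulators of the sterol regulatory element-binding proteins (SREBPs). The 35 members were chosen by name from the pathway and not by their values, although earlier results of these data were known. They are 18 enzymes of the sterol pathway from Acat2 to Dhcr7, the sterol carrier Stard4, 11 enzymes of fatty acid synthesis and 5 regulators. Each of the 35 symbols matched 1 gene among the 28632 in the count table. Bulk RNA sequencing had been done on islets of 12-week-old C57BL/6N mice of 4 genotypes, with 6 Ctrl, 4 β-Mfn1KO, 5 β-Mfn2KO and 5 β-Mfn1/2DKO libraries. In the knockouts, loxP-flanked exon 4 of Mfn1, exon 6 of Mfn2 or both had been removed by Cre knocked into the Ins1 locus, which acts in β-cells, so the other cells of each islet kept both genes. The controls were littermates labelled wild type, and under that name the study put together mice carrying only the Cre and mice carrying only the floxed alleles. All islets were cultured overnight after collagenase isolation. Both sexes were in every group (3 female and 3 male Ctrl, 3 and 1 β-Mfn1KO, 2 and 3 β-Mfn2KO, 2 and 3 β-Mfn1/2DKO).

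SREBPs are made as precursors in the membrane of the endoplasmic reticulum. When sterols are scarce, the escort protein SCAP carries them to the Golgi, where proteases free the part that enters the nucleus and switches on lipid synthesis genes, and when sterols are plentiful, INSIG proteins hold the SCAP complex back. SREBP-2, from Srebf2, acts mainly on the sterol enzymes, and SREBP-1c, from Srebf1, acts mainly on the fatty acid enzymes. In β-cells these lipids are built into the plasma membrane and the insulin granules.

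The targeted genes were checked first. Mfn1 lay between 621 and 770.4 normalised counts in the 4 β-Mfn1KO libraries and between 687 and 1062 in the 5 β-Mfn1/2DKO libraries, below the Ctrl range of 1518 to 1807. Mfn2 lay between 1474 and 1688 in β-Mfn2KO and between 2022 and 2131 in β-Mfn1/2DKO, below the Ctrl range of 3089 to 4373, although gene-level counts keep the reads of the exons left in place. Total counts ran from 12400687 to 20329064 in Ctrl, from 15745680 to 16685381 in β-Mfn1KO, from 15110046 to 59533407 in β-Mfn2KO and from 65533388 to 122947313 in β-Mfn1/2DKO, so depth went with genotype. Markers of other cells also moved: all 10 β-cell markers fell in β-Mfn1/2DKO (median log2 fold change -1.05), and all 12 acinar (exocrine) markers rose. Ins1, whose locus carries the Cre, also passed lower in both single knockouts, the only one of the 10 to do so. The summed acinar level was 602 to 61837 CPM (counts relative to the library's total after scaling) against 387 to 2700 CPM in Ctrl. β-Mfn1/2DKO libraries 4 and 5 carried the most acinar RNA (23668 and 61837 CPM), and the other 3 (602 to 1025 CPM) lay within the Ctrl range. Of the endothelial markers 5 of 6 passed higher (median log2 fold change 0.62, summed level 234 to 377 CPM against 171 to 259 CPM in Ctrl), as did 3 of 5 duct markers and 1 of 6 stellate cell and fibroblast markers (Pdgfrb), and 1 of 6 macrophage markers (C1qa) passed lower. None of the 6 markers of α-, δ- and PP-cells and none of the 7 measured adipocyte markers passed, and Cfd and Retn were at 0 in every Ctrl library. In bulk islets, fewer cells of a type and less RNA per cell cannot be told apart.

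The bases in front of 4 members are shown because these members went in different directions in β-Mfn1/2DKO islets and hold matches to letters that SREBPs or their partners are known to bind. They are RefSeq sequences of GRCm38.p6, 5′ to 3′ on the gene's strand, from 250 bases before the annotated start and ending before the earliest annotated exon. Capitals mark TCACNCCAC (the core of a sterol regulatory element), CACGTG (an E-box) or CCAAT (the box of the partner NF-Y), each read on both strands.
Hmgcs1, chr13:119690101-119690350, plus strand: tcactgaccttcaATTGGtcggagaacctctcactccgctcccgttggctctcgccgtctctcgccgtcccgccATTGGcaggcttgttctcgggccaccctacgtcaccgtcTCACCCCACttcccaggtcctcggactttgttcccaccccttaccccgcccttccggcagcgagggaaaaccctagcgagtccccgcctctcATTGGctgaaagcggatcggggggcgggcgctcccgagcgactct
Insig1, chr5:28071162-28071362, plus strand: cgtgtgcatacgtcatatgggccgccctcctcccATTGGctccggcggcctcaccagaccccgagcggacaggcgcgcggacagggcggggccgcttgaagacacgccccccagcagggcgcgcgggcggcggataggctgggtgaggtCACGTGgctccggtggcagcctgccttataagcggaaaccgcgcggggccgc
Hsd17b7, chr1:169969242-169969455, minus strand: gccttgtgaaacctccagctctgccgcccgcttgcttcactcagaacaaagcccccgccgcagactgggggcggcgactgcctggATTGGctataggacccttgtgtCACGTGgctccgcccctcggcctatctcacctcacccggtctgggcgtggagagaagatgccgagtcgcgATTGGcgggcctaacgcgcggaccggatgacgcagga
Elovl5, chr9:77917115-77917363, plus strand: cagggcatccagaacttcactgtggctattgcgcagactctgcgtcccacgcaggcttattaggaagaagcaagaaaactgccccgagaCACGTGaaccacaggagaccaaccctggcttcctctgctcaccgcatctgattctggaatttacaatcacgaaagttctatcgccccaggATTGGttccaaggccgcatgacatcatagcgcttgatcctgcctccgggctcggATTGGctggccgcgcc
RefSeq windows of 300 bases (250 before and 50 after the start) were held for 28 of the 35 members. TCACNCCAC was found in Hmgcs1 alone among the 28, and in 1.44% of all 27025 genes with such a window, counted in any of a gene's windows as for the members. CACGTG was found in 6 members (Insig1, Elovl5, Dhcr7, Hsd17b7, Scap and Sc5d) and in 8.09% of all genes. Of these 6, 3 were lower in β-Mfn1/2DKO, 2 were higher and 1 did not pass the test. CCAAT was found in 23 members, in 11 of the 13 lower ones, 2 of the 3 higher ones and 10 of the 12 that did not pass, and in 41.1% of all genes. Insig1, which fell, and Hsd17b7, which rose, share the 14 bases gtCACGTGgctccg, which occur in 5 of the 32851 windows. A match of letters is a description and does not show binding.

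Many genes of both arms were lower in β-Mfn1/2DKO islets than in Ctrl islets. At an adjusted p under 0.05, 19 of the 35 members passed the edgeR test, 16 of them lower and 3 higher, whereas 16.5% of all 28632 genes passed (6.86% lower and 9.59% higher). All 35 members were expressed well enough to pass a filter on low counts, which kept 15267 genes. In a separate fit to those genes alone 24 members passed (21 lower and 3 higher), and 35.2% of the genes did (16.6% lower and 18.6% higher). The log2 fold change was below 0 in 31 of the 35 members, with a median of -0.23, against a median of 0.06 over all genes. The changes were small: with a fold change over 1.5 as well, 3 members were left (Srebf1 and Scd2 lower, Acacb higher), against 5.21% of all genes. The same 3 were left in the fit to well-expressed genes, against 8.97% of those, so that count is near the background. In 9 members every β-Mfn1/2DKO library lay below every Ctrl library, a pattern seen in 4.04% of all genes and 7.33% of the well-expressed ones, and in 1 member, Scap, every one lay above (6.56% and 10.5%).

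**Figure D1:**
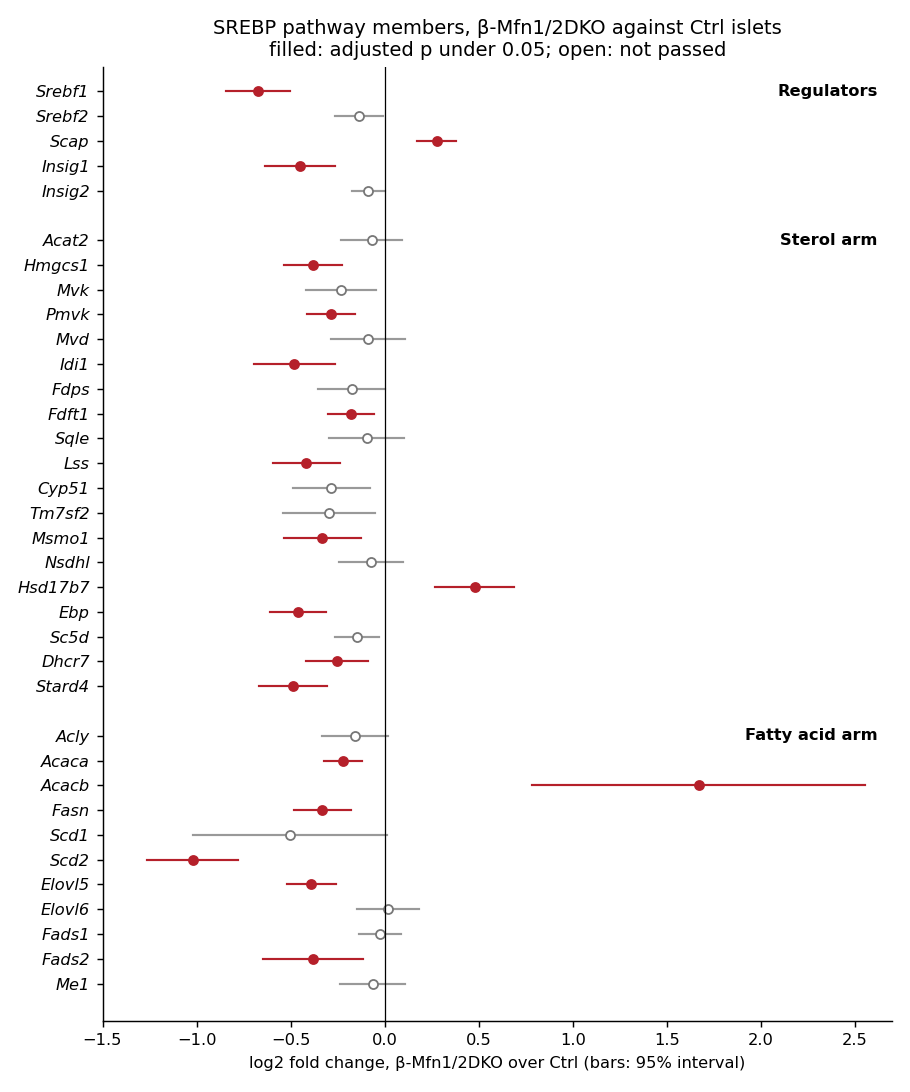
Log2 fold change of each of the 35 members in β-Mfn1/2DKO against Ctrl islets (x axis), in the order of the pathway within the regulators, the sterol arm and the fatty acid arm (y axis). Points are fitted values, bars are 95% intervals and filled points passed at adjusted p under 0.05; most points lie left of 0, Scd2 lies farthest left, and Scap, Hsd17b7 and Acacb are the filled points to the right.

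Among the regulators, the transcript of SREBP-1 fell most. Srebf1 (ENSMUSG00000020538, chr11:60199089-60222581, minus strand, GRCm38) ran from 5526 to 7107 (median 6585) normalised counts in the 6 Ctrl libraries. The β-Mfn1/2DKO libraries held 4699, 4186, 3915, 3812 and 3762, all of them below every Ctrl library. Those of β-Mfn1KO held 6803, 6363, 6768 and 7643 and those of β-Mfn2KO 6641, 7344, 5632, 6083 and 5201, within or near the Ctrl range. The log2 fold change of Srebf1 in β-Mfn1/2DKO was -0.67 ± 0.08 (SE) at an adjusted p of 5e-06, a fall of 37.3% in the mean. Srebf2, which encodes SREBP-2, ran from 6198 to 6974 (median 6837) in Ctrl and held 6745, 6189.8, 6085, 6079 and 5373 in β-Mfn1/2DKO. Library 1 lay inside the Ctrl range and the other 4 lay below it, and the log2 fold change of -0.14 ± 0.06 (SE) at an adjusted p of 0.14 did not pass. In 3 of 11 alternative fits (other scalings, tests, covariates, filters or sets of libraries) Srebf2 passed. Its 95% interval was -0.27 to -0.01, so a fall as large as that of Srebf1 lies outside it. Counts per gene do not tell SREBP-1a from SREBP-1c. Srebf1 shares 109 exon bases with Rai1 on the opposite strand, and Rai1 did not pass (log2 fold change 0.01). Whether the counting used strand is not given in the sources used here, and without it reads of such a pair cannot be told apart.

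Insig1, whose protein holds the SCAP complex in the endoplasmic reticulum and whose gene is itself a known SREBP target, fell. Its Ctrl libraries (ENSMUSG00000045294, chr5:28071363-28078662, plus strand) ran from 4436 to 6359.8 (median 5435), and its β-Mfn1/2DKO libraries held 3760.4, 3852, 3379, 4701 and 4069.6. Library 4 lay inside the Ctrl range and the other 4 lay below it. The log2 fold change was -0.45 ± 0.09 (SE) at an adjusted p of 0.0011. β-Mfn1KO islets held 5529.8, 6830.0, 5824 and 6223 counts and β-Mfn2KO islets 5933, 5886, 5093, 5537 and 4676, which overlap the controls. Insig2, which encodes a related INSIG protein, went from 2382 ± 147 (SD, n = 6) to 2244 ± 51 (SD, n = 5), and its log2 fold change of -0.09 ± 0.04 (SE) at an adjusted p of 0.19 did not pass. Scap, the escort itself (ENSMUSG00000032485, chr9:110333288-110384950, plus strand), moved the other way. It ran from 3670.4 to 4051 (median 3834) in Ctrl and held 4483, 4454, 4498, 4787 and 5030.3 in β-Mfn1/2DKO, where every library lay above every control. The log2 fold change of Scap was 0.28 ± 0.05 (SE) at an adjusted p of 0.00051, while β-Mfn1KO (3760.1, 3489, 3857 and 4064) and β-Mfn2KO (4059, 4184, 3959.9, 3820.0 and 3527) lay around the Ctrl values.

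In the sterol arm 10 of 19 members passed in β-Mfn1/2DKO, 9 lower and 1 higher, with a median log2 fold change of -0.25 over the 19. The share of all genes passing was 16.5% (6.86% lower and 9.59% higher), and that of the well-expressed genes in their separate fit was 35.2%. The enzymes that make and use mevalonate come at the start. Hmgcs1 (ENSMUSG00000093930, chr13:119690379-119708260, plus strand), the HMG-CoA synthase, ran from 2833 to 3434 (median 3274) in Ctrl and held 2688, 2554, 2248, 2623 and 2187 in β-Mfn1/2DKO. All 5 lay below the controls, and the log2 fold change was -0.38 ± 0.07 (SE) at an adjusted p of 0.0009. β-Mfn1KO held 3361, 3291, 3646 and 3587 and β-Mfn2KO 3701, 3413, 2630.1, 3317 and 3124, where only β-Mfn2KO library 3 lay under the controls. Pmvk, phosphomevalonate kinase, ran from 1326 to 1688 (median 1485) in Ctrl and held 1339, 1230.3, 1182, 1260.0 and 1153 in β-Mfn1/2DKO, with library 1 inside the Ctrl range. Its log2 fold change was -0.29 ± 0.06 (SE) at an adjusted p of 0.0021, with β-Mfn1KO at 1675, 1636, 1443 and 1719 and β-Mfn2KO at 1436, 1287, 1421, 1339.8 and 1505. Idi1, the isopentenyl diphosphate isomerase, ran from 1039.8 to 1371 (median 1204) in Ctrl and held 992, 896, 745, 1029 and 690.3 in β-Mfn1/2DKO, with no overlap. Its log2 fold change was -0.48 ± 0.10 (SE) at an adjusted p of 0.0023, and β-Mfn1KO held 1357, 1435, 1453 and 1433 and β-Mfn2KO 1526, 1338, 964, 1284 and 1299.7. Of the other early enzymes, Acat2 (-0.07, adjusted p = 0.64), Mvk (-0.23, 0.083), Mvd (-0.09, 0.61) and the farnesyl diphosphate synthase Fdps (-0.18, 0.19) had log2 fold changes below 0 that did not pass. Exact copies of 75 bases in near-identical genes covered 33.9% of Acat2, 23.5% of Fdps and 16.7% of Idi1, but those copies held at most 13.2 counts on average.

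Squalene is then made, closed into lanosterol and trimmed to cholesterol. Fdft1, squalene synthase, was lower with a log2 fold change of -0.18 ± 0.06 (SE) at an adjusted p of 0.037. This call was lost when any 1 of 9 libraries was left out, at adjusted p values up to 0.16. Its means were 2348 ± 186 (SD, n = 6) in Ctrl and 2075 ± 126 (SD, n = 5) in β-Mfn1/2DKO, so the SDs overlap, and it shares 774 exon bases with Ctsb on the opposite strand, whose counts were 10.5 times its own. Sqle, the squalene epoxidase, did not pass (-0.10, 95% interval -0.29 to 0.10, adjusted p = 0.58). Lss, lanosterol synthase, ran from 1939 to 2779.5 (median 2494) in Ctrl and held 1998, 1885, 1704, 1795 and 1562 in β-Mfn1/2DKO. Only library 1 reached into the Ctrl range, and the log2 fold change was -0.42 ± 0.09 (SE) at an adjusted p of 0.0015. β-Mfn1KO held 2724, 2607, 2642 and 2395 and β-Mfn2KO 2319, 2620.1, 1930.2, 2236 and 2137. Msmo1, a demethylase of the C4 position, ran from 2350.4 to 3349 (median 2678) in Ctrl and held 2309, 2524, 2032, 2363 and 1673 in β-Mfn1/2DKO. Libraries 2 and 4 lay inside the Ctrl range, and the log2 fold change was -0.33 ± 0.10 (SE) at an adjusted p of 0.022. The call was lost without Ctrl library 1 or β-Mfn1/2DKO library 3 or 5 (adjusted p up to 0.076). β-Mfn1KO held 3352, 3162, 3077 and 2949 and β-Mfn2KO 3292, 2951, 2294, 2863 and 2854 counts of Msmo1. Hsd17b7, which acts in the same C4 demethylation, went up instead. It ran from 359 to 558 (median 437) in Ctrl and held 631, 627, 613, 716 and 499 in β-Mfn1/2DKO, where only library 5 lay inside the Ctrl range. The log2 fold change was 0.48 ± 0.10 (SE) at an adjusted p of 0.0017, with β-Mfn1KO at 469, 544, 499 and 432 and β-Mfn2KO at 511, 424, 530.3, 478 and 534. Nsdhl, the third enzyme of that step, did not pass (-0.07, adjusted p = 0.64).

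Ebp, the sterol isomerase (ENSMUSG00000031168, chrX:8185329-8193512, minus strand), had the smallest adjusted p of the arm. It ran from 610.2 to 768 (median 704) in Ctrl and held 479, 545, 526.4, 529.9 and 455 in β-Mfn1/2DKO, with no overlap and a log2 fold change of -0.46 ± 0.07 (SE) at an adjusted p of 8.1e-05. In β-Mfn1KO it held 739.7, 690.1, 703 and 828.8 and in β-Mfn2KO 638, 704, 608, 631 and 653. Dhcr7, which makes cholesterol in the last step, fell from 736 ± 75.5 (SD, n = 6) to 616 ± 59.7 (SD, n = 5), a log2 fold change of -0.25 ± 0.08 (SE) at an adjusted p of 0.03. That call was lost without any 1 of 6 libraries (adjusted p up to 0.12). Cyp51, the lanosterol demethylase, was just outside the threshold (-0.28, adjusted p = 0.051), and Tm7sf2 (-0.29, 0.099) and Sc5d (-0.15, 0.084) did not pass either. In 6 of the 11 alternative fits Cyp51 passed, so its call depends on the setting. It shares 166 exon bases with Akap9 on the opposite strand, which did not pass (-0.15, 0.15). Tm7sf2 shares 532 exon bases with Vps51 on the same strand, whose counts were 6.07 times its own. Stard4, which carries cholesterol through the cytosol, ran from 1023 to 1333 (median 1183) in Ctrl and held 927, 866, 772, 856 and 781 in β-Mfn1/2DKO. No library overlapped, and the log2 fold change of Stard4, -0.49 ± 0.09 (SE) at an adjusted p of 0.00033, was the lowest of the arm. β-Mfn1KO held 1049.6, 1226, 1202 and 1350.0 and β-Mfn2KO 1487, 1296, 1042, 1235 and 1133.

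**Figure D2:**
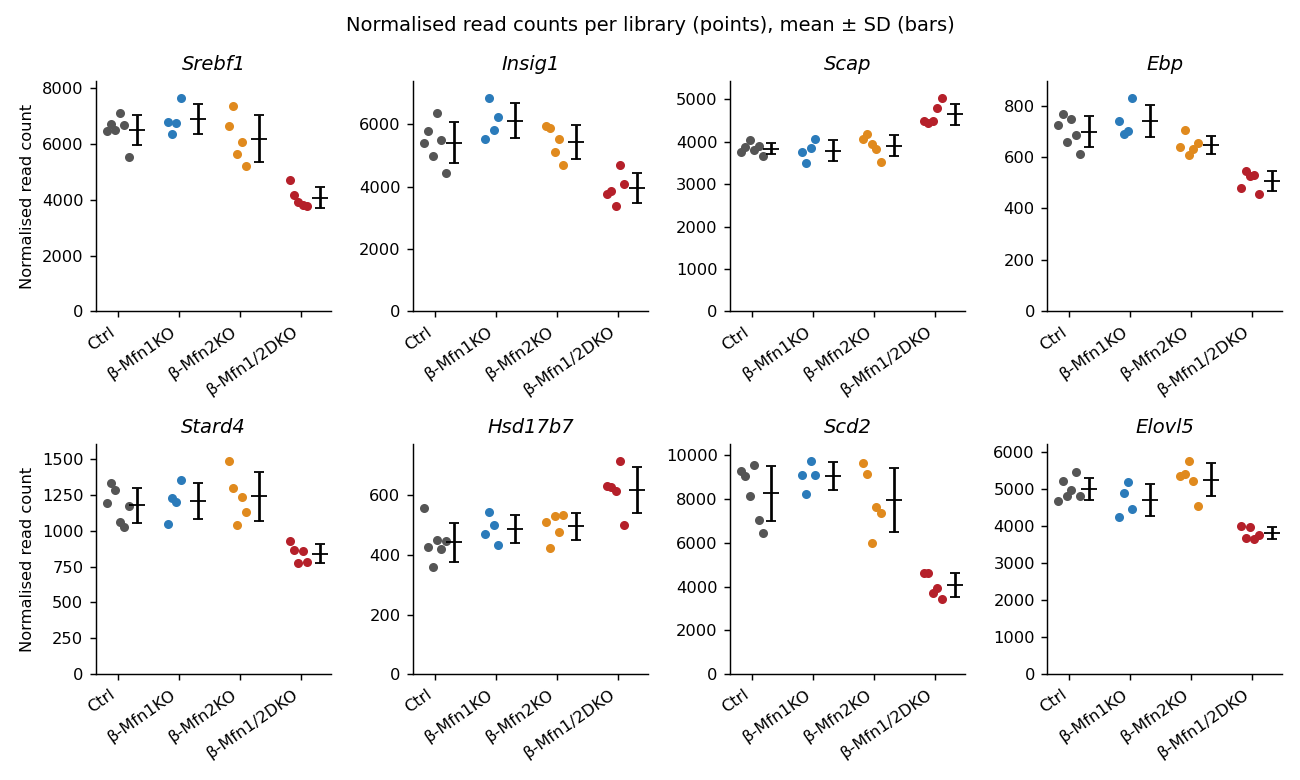
Normalised read counts (y axis, from 0) of 8 members in each library, by genotype (x axis), with the mean ± SD as bars. The 5 β-Mfn1/2DKO points lie below all 6 Ctrl points for Srebf1, Ebp, Stard4, Scd2 and Elovl5 and above them for Scap, and overlap them for Insig1 and Hsd17b7.

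In the fatty acid arm 6 of 11 members passed, 5 lower and 1 higher, with a median log2 fold change of -0.22. Of all genes 16.5% passed in this fit (6.86% lower and 9.59% higher), and of the well-expressed genes 35.2% in their separate fit. Scd2, a desaturase that makes oleate and palmitoleate, fell most of the 35 members (ENSMUSG00000025203, chr19:44293674-44306864, plus strand). It ran from 6466 to 9534 (median 8597) in Ctrl and held 4622, 4634, 3691, 3938 and 3436 in β-Mfn1/2DKO, where the highest library lay well under the lowest control. Its mean fell by 50.7%, with a log2 fold change of -1.02 ± 0.12 (SE) at an adjusted p of 2.4e-06. β-Mfn1KO held 9092, 8208, 9740.3 and 9114 and β-Mfn2KO 9628, 9129, 5979, 7632 and 7356. Elovl5, an elongase of polyunsaturated fatty acids, ran from 4675 to 5462 (median 4899) in Ctrl and held 4010.4, 3685, 3980.2, 3648 and 3747 in β-Mfn1/2DKO, with no overlap and a log2 fold change of -0.39 ± 0.06 (SE) at an adjusted p of 0.00011. β-Mfn1KO held 4237, 4897, 5188 and 4471, with libraries 1 and 4 under the Ctrl range, and β-Mfn2KO held 5349, 5412, 5761, 5206 and 4543. Fads2, the delta-6 desaturase, ran from 486 to 863 (median 768) in Ctrl and held 650.0, 550.4, 473, 553 and 589 in β-Mfn1/2DKO, where only library 3 lay below every control. Its log2 fold change of -0.38 ± 0.13 (SE) at an adjusted p of 0.043 was near the threshold, and its call was lost when any 1 of 12 libraries was left out (adjusted p up to 0.14). β-Mfn1KO held 846, 751, 849 and 1009 and β-Mfn2KO 818, 759, 503, 624.8 and 644. Fads1, the delta-5 desaturase next to it on chromosome 19, did not pass (-0.03, 95% interval -0.14 to 0.08, adjusted p = 0.78), nor did Elovl6 (0.02, -0.15 to 0.18, 0.93), which lengthens palmitate.

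The enzymes that build the chain, Acaca and Fasn, were lower. Acaca, the cytosolic acetyl-CoA carboxylase that makes malonyl-CoA for synthesis, ran from 2183 to 2477 (median 2269) in Ctrl and held 2036, 1812, 2073, 2004 and 1895 in β-Mfn1/2DKO. No library overlapped, and the log2 fold change was -0.22 ± 0.05 (SE) at an adjusted p of 0.0027. Copies elsewhere cover 26.8% of its 75-base stretches, with at most 16.4 counts on average. β-Mfn1KO held 2099, 1930.2, 2267 and 2049 and β-Mfn2KO 2231, 2173, 2167, 2122 and 2038 counts of Acaca, so 3 of the 4 and 4 of the 5 lay below every control, although neither group passed the test. Fasn, fatty acid synthase, ran from 5348 to 6826 (median 6246) in Ctrl and held 5068, 4511, 4895, 4975 and 5111 in β-Mfn1/2DKO, again with no overlap and a log2 fold change of -0.33 ± 0.07 (SE) at an adjusted p of 0.0027. β-Mfn1KO held 6041, 5235, 6755 and 6132 and β-Mfn2KO 6615, 6601, 5779.8, 5692 and 5193. The suppliers of acetyl-CoA and NADPH did not pass: Acly, ATP-citrate lyase, had a log2 fold change of -0.16 ± 0.08 (SE) at an adjusted p of 0.23, and Me1, malic enzyme, of -0.06 ± 0.08 (SE) at an adjusted p of 0.67. Per kilobase of exon, Acly was the most abundant member in Ctrl islets, at 561.9 ± 31.7 CPM per kb (SD, n = 6), and the next was Insig1 at 42.2 ± 5.15. Scd2 (36.5 ± 5.60), Elovl5 (34.2 ± 2.03) and Sqle (33.9 ± 5.92) followed within their SDs of each other. Scd1 (1.25 ± 0.145) and Acacb (0.105 ± 0.0305) were the least abundant, so per length Scd2 stood far above its relative Scd1.

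Acacb and Scd1 were split by the libraries rich in acinar RNA. Acacb, the acetyl-CoA carboxylase of the outer mitochondrial membrane, ran from 24.9 to 55.4 (median 42.3) in Ctrl and held 57.8, 61.3, 47.3, 148 and 363 in β-Mfn1/2DKO, a log2 fold change of 1.67 ± 0.43 (SE) at an adjusted p of 0.0084. Libraries 4 and 5, the highest in acinar RNA, held 148 and 363, and the first 3 held 47.3 to 61.3, beside or just above the highest control. β-Mfn1KO held 36.3, 44, 39.7 and 33.3 and β-Mfn2KO 45.1, 46.9, 43.1, 75.1 and 31.7, where the highest value was library 4, the one with the most acinar RNA of its group. Without β-Mfn1/2DKO libraries 4 and 5 the log2 fold change of Acacb was 0.41 (adjusted p = 0.40), and with the acinar score as a covariate it was 0.66 (0.074). Scd1, singled out here after its values were seen, was low where Acacb was not raised. It ran from 218 to 291 (median 244) in Ctrl and held 131, 104, 85.4, 261 and 315 in β-Mfn1/2DKO, where libraries 1 to 3 lay below every control and libraries 4 and 5 inside or above the Ctrl range. Over all 5 the log2 fold change was -0.50 ± 0.25 (SE) at an adjusted p of 0.19, without libraries 4 and 5 it was -1.22 (adjusted p = 1.7e-05), and with the acinar score as a covariate it was -0.99 (0.00030). Scd2 was low in all 5 libraries and stayed at -0.91 (6.2e-05) without libraries 4 and 5.

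**Figure D3:**
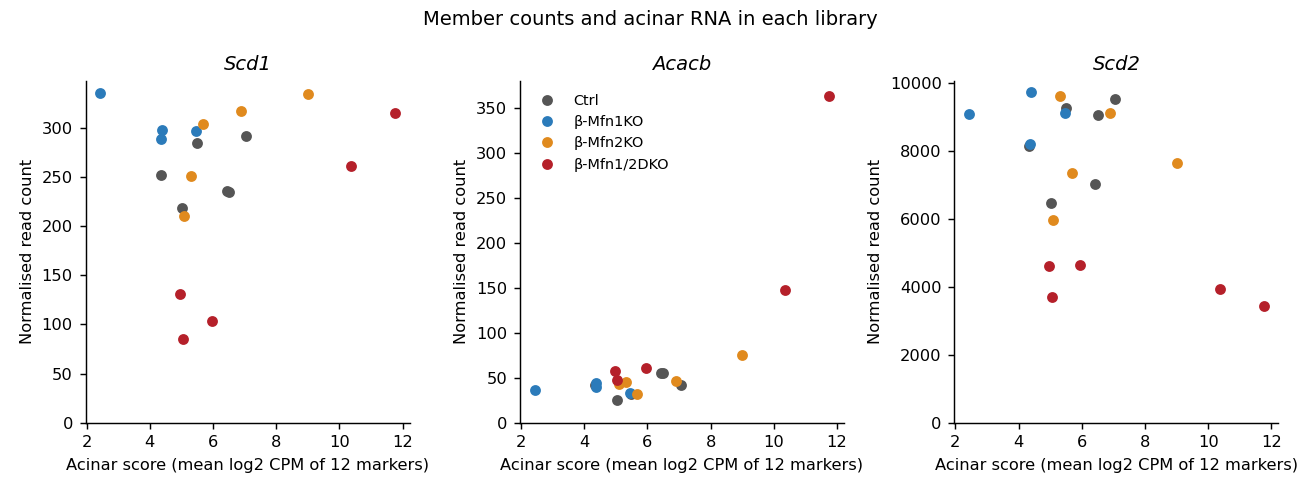
Normalised read counts (y axis, from 0) of Scd1, Acacb and Scd2 in each of the 20 libraries against the acinar score (x axis), coloured by genotype. The score is the mean log2 CPM of 12 exocrine markers, here relative to the library's unscaled total. β-Mfn1/2DKO libraries 4 and 5, at scores of 10.4 and 11.8, hold far more Scd1 and Acacb than the other 3 β-Mfn1/2DKO libraries, while Scd2 is low in all 5.

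Leaving out β-Mfn1/2DKO libraries 4 and 5 left 7 sterol members and 5 fatty acid members past the threshold, and 3221 of all 28632 genes. The sterol calls lost were Msmo1 (log2 fold change -0.24, adjusted p = 0.13), Dhcr7 (-0.23, 0.097) and Fdft1 (-0.17, 0.11), and the fatty acid calls lost were Acacb and Fads2 (-0.37, 0.13), with Scd1 gained. Srebf1 (-0.58), Insig1 (-0.54), Stard4 (-0.44), Ebp (-0.41), Hmgcs1 (-0.34) and Scap (0.24) kept their calls. Depth could be separated from genotype only through β-Mfn2KO libraries 4 and 5, which held 55962873 and 59533407 counts against at most 18919122 in the rest of that group. Library 4 also held 10197 CPM of acinar markers, against at most 2437 CPM in the rest of the group. Library 5 held 818 CPM of macrophage and 324 CPM of fibroblast markers, against at most 108 and 72.7 CPM. A term for depth class therefore cannot separate depth from these markers. With depth class as a covariate, Scd2 (-0.88, adjusted p = 0.022) and Scap (0.42, 0.0095) kept their calls, and Srebf1 (-0.46, 0.086) and Ebp (-0.44, 0.077) did not. None of the 19 sterol members passed, although 18 of them still had values below 0. In that fit 728 of all 28632 genes passed, against 4710 without the covariate. The part of the lower β-cell markers in these falls was not tested.

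Libraries of 1 genotype differed in how low the arms stood. As the geometric mean over its 19 genes, relative to the Ctrl mean, the sterol arm stood at 99.6% ± 5.55 (SD, n = 6) in Ctrl, 109.8% ± 2.25 (n = 4) in β-Mfn1KO, 99.6% ± 6.38 (n = 5) in β-Mfn2KO and 85.5% ± 7.62 (n = 5) in β-Mfn1/2DKO. Within β-Mfn1/2DKO, library 5 was lowest for 13 of the 19 sterol genes and library 3 for the other 6, at 75.1% and 79.6%, while libraries 1, 2 and 4 lay between 89.9% and 92.0%. The highest of these, 92.0%, lay above the lowest control, 91.5%. β-Mfn2KO library 3 was lowest of its group for 14 of the 19 genes, at 89.4%. The fatty acid arm stood at 88.0% ± 9.0 in β-Mfn1/2DKO against 99.4% ± 7.44 in Ctrl, and there library 5 was the highest (97.8%), with its raised Acacb and Scd1. Ctrl library 6 was lowest of the controls for 9 sterol, 6 fatty acid and 4 regulator genes, and its summed macrophage and fibroblast markers (595 and 300.5 CPM) were above those of the other controls (at most 103 and 43.7 CPM). β-Mfn2KO library 5 held more of both (818 and 324 CPM), and its sterol arm stood at 99.7%. Its fatty acid arm (93.6%) and regulators (89.8%) were the lowest of its group. Whether these markers go with the levels was not tested. In both sexes the means of β-Mfn1/2DKO over Ctrl went the same way for Srebf1 (log2 ratio -0.56 in females and -0.75 in males) and Scd2 (-0.93 and -1.06).

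**Figure D4:**
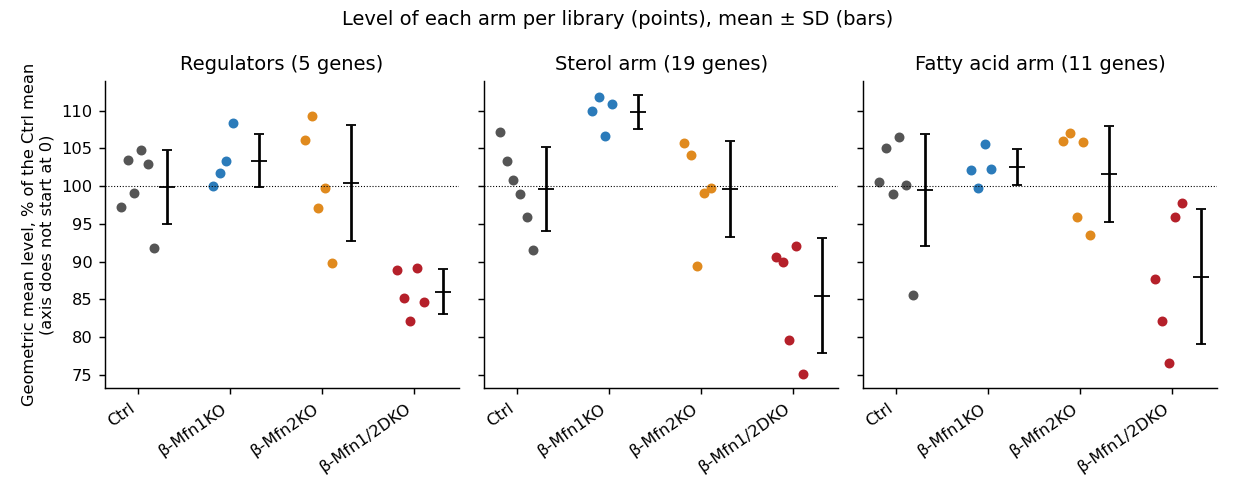
Level of the regulators, the sterol arm and the fatty acid arm in each library (points), as the geometric mean over their genes in % of the Ctrl mean (y axis, not from 0), by genotype (x axis), with mean ± SD as bars. For the sterol arm, β-Mfn1/2DKO ranges from 75.1% to 92.0%, β-Mfn1KO from 106.6% to 111.8% and Ctrl from 91.5% to 107.2%.

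**Figure D5:**
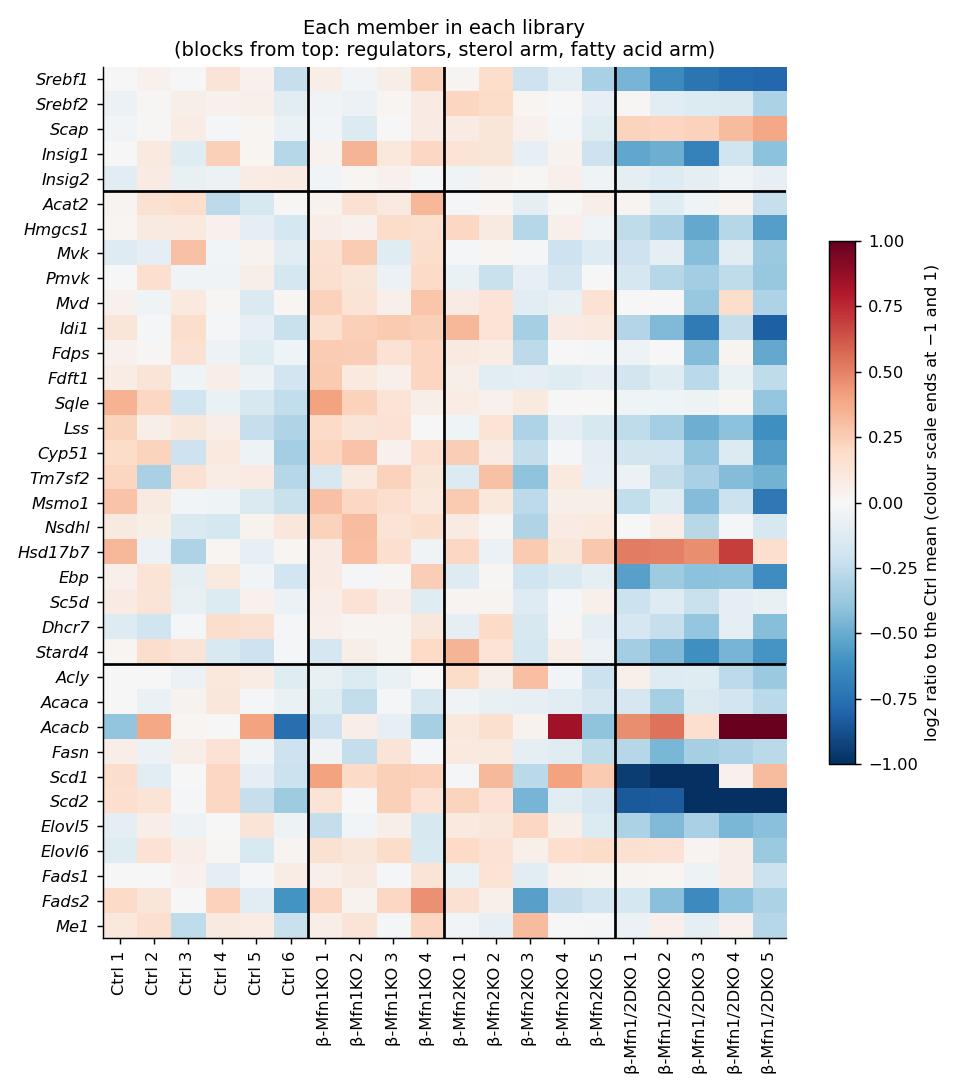
Log2 ratio of each member (rows) in each library (columns) to its Ctrl mean, blue below and red above, with the colour scale ending at -1 and 1. In the β-Mfn1/2DKO columns most sterol genes are blue, most deeply in libraries 3 and 5, whereas Scap and Hsd17b7 are red in all 5 and Scd1 and Acacb split between libraries 1 to 3 and libraries 4 and 5.

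Loss of either mitofusin alone was compared with Ctrl to ask whether a single deletion changed the pathway. In β-Mfn1KO none of the 35 members passed in edgeR or in DESeq2, and 8 of all 28632 genes passed in edgeR (0.0279%). An unadjusted p under 0.05 was found for 5 members and for 2130 of all genes. All 19 sterol members nonetheless had log2 fold changes above 0, from 0.03 to 0.23 with a median of 0.13 (0.00 over all genes), and 15 of the 19 intervals contained 0. The genes share their libraries, and the β-Mfn1KO libraries held 145 to 920 CPM of acinar markers against 387 to 2700 CPM in Ctrl. Sex differed too, with 3 female and 1 male β-Mfn1KO libraries against 3 and 3 in Ctrl. Within genotypes the sterol genes had a median log2 difference of male from female islets of -0.08. The sterol arm of β-Mfn1KO, at 106.6% to 111.8%, overlapped the highest control at 107.2%. The 5 with an unadjusted p under 0.05 were Fdft1 (0.16), Acaca (-0.13), Fdps (0.21), Nsdhl (0.21) and Sqle (0.21). In β-Mfn2KO none passed in either tool, and 16 of all genes passed in edgeR (0.0559%). No member had an unadjusted p under 0.05, against 1208 of all genes. There the sterol log2 fold changes ran from -0.11 to 0.16, and every sterol interval lay between -0.27 and 0.38. For Srebf1 the intervals were -0.10 to 0.27 in β-Mfn1KO and -0.24 to 0.10 in β-Mfn2KO, and for Scd2 -0.12 to 0.39 and -0.29 to 0.18, so changes of the size seen in β-Mfn1/2DKO lie outside them.

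The further loss of Mfn1 was examined against β-Mfn2KO, which has deep libraries too. Between β-Mfn1/2DKO and β-Mfn2KO, 15 members passed (12 lower, 3 higher), against 13% of all genes (5.9% lower, 7.09% higher). In the separate fit to well-expressed genes 22 members passed (19 lower, 3 higher), against 28.6% of those genes (14% lower, 14.7% higher). The comparison shares its β-Mfn1/2DKO libraries with that against Ctrl. The lower members were Hmgcs1 (-0.40), Idi1 (-0.56), Lss (-0.33), Msmo1 (-0.39), Ebp (-0.35), Stard4 (-0.56), Srebf1 (-0.60), Srebf2 (-0.21), Insig1 (-0.46), Fasn (-0.28), Scd2 (-0.97) and Elovl5 (-0.46), and the higher ones were Hsd17b7 (0.32), Scap (0.25) and Acacb (1.46), all as log2 fold changes. Srebf2 passed here with an adjusted p of 0.033, and of its β-Mfn2KO values (7795, 7601, 6792, 6692 and 6349) those of libraries 1 and 2 lay above every control. β-Mfn1KO held 6535, 6439.5, 6787 and 7085 of Srebf2. With the deep libraries alone, 5 β-Mfn1/2DKO against 2 β-Mfn2KO, 5 members passed: Scd2 (-0.83, adjusted p = 0.0064), Scap (0.39, 0.013), Stard4 (-0.45, 0.019), Elovl5 (-0.31, 0.039) and Srebf1 (-0.42, 0.043). In that fit 1805 of all 28632 genes passed. Its 2 β-Mfn2KO libraries are those with raised acinar or raised macrophage and fibroblast markers.

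The design is a 2-by-2 crossing of Mfn1 and Mfn2 loss, so the interaction asks whether the effect of losing Mfn1 differed when Mfn2 was also absent. It passed for 11 members, 10 below 0 and 1 above, against 5.92% of all genes (3.03% below, 2.88% above). In the separate fit to well-expressed genes it passed for 14 members (13 below, 1 above), against 15.4% of those genes (8.23% below, 7.15% above). Of the 11, those in the sterol arm were Idi1 (-0.78, adjusted p = 0.0035), Stard4 (-0.59, 0.0071), Msmo1 (-0.58, 0.02), Hmgcs1 (-0.51, 0.0067), Lss (-0.45, 0.041) and Ebp (-0.43, 0.017). Idi1 had an effect of 0.23 (log2) in β-Mfn1KO against Ctrl and of -0.56 in β-Mfn1/2DKO against β-Mfn2KO. Scd2 had the lowest interaction (-1.10, 0.00054), with 0.13 and -0.97 for the same pair of contrasts. Srebf1 (-0.69, 0.0014), Insig1 (-0.63, 0.0055) and Elovl5 (-0.37, 0.017) were also below 0, and Scap was above it (0.27, 0.039). The other 7 members that were lower in β-Mfn1/2DKO against Ctrl or β-Mfn2KO (Pmvk, Fdft1, Dhcr7, Acaca, Fasn, Fads2 and Srebf2) did not pass the interaction, and for Acaca it was 0.01 (95% interval -0.15 to 0.16).

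Other genes of sterol and fatty acid handling were taken from 5 lists of 63 genes in all. In β-Mfn1/2DKO against Ctrl 21 of the 63 passed, 15 higher and 6 lower, with a median log2 fold change of 0.08 over the 63. In the separate fit to well-expressed genes 25 of the 62 kept passed, against 35.2% of all genes in it, so the number passing is near the background and the genes below are given as single values. When depth class was a covariate, 2 genes of the 63 passed (Stard5 and Acsl3), and 728 of all 28632 genes did. In glycerolipid synthesis 4 of 11 passed and all 4 rose: Dgat2, which makes triglyceride, with 0.97 (adjusted p = 0.0004), its partner in that step Dgat1 (0.26, 0.0096), and the acyltransferases Agpat2 (0.42, 0.0005) and Agpat3 (0.30, 0.0029). Agpat2 shares 64 exon bases with Egfl7 on the opposite strand, which also rose (0.64, 0.0002) and whose counts were 170% of its own. Dgat2 went from 194 ± 58.5 (SD, n = 6) to 378 ± 77.2 (SD, n = 5) normalised counts. Among sterol sensing, transport and esterification genes 4 of 12 passed. Stard5, a sterol and bile acid binding relative of Stard4, rose from 1678 ± 304 to 5400.4 ± 1137 with a log2 fold change of 1.68 ± 0.16 (SE) at an adjusted p of 1.5e-07, while Stard4 fell. Osbpl9 (0.18, 0.011) and Stard3 (0.19, 0.017) also rose, and the oxysterol binding protein Osbp (-0.25, 0.025) fell, a call lost without any 1 of 7 libraries (adjusted p up to 0.075). Osbpl9 shares 633 exon bases with Nrd1 on the opposite strand, which fell (-0.20, 0.011). Of 10 genes of SREBP processing and turnover 3 passed: the ER membrane protein Erlin1 (0.55, 0.0005) and the SREBP protease Mbtps2 (0.24, 0.029) rose, and Hdlbp (-0.61, 0.00027), a large RNA-binding protein, fell. Mbtps2 lost its call without Ctrl library 3, 4 or 5 (adjusted p up to 0.065).

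Of 9 isoprenoid genes 3 passed: the prenyl protein protease Zmpste24 (-0.34, 0.0014) and the farnesyltransferase subunit Fntb (-0.22, 0.023) fell, and its partner subunit Fnta (0.15, 0.012) rose. Fntb lost its call without Ctrl library 3 or β-Mfn1/2DKO library 3, 4 or 5 (adjusted p up to 0.099). It shares 257 exon bases with Churc1 on the same strand, which did not pass (-0.18, 0.097). Without β-Mfn1/2DKO libraries 4 and 5 together, Mbtps2, Stard3, Osbp, Fntb and Dgat1 did not pass. Of 21 genes of fatty acid supply, elongation and activation 7 passed, 5 higher and 2 lower. The acyl-CoA synthetase Acsl3 (0.43, 0.0013) and Mid1ip1 (0.33, 0.00099), which binds acetyl-CoA carboxylase, rose. Acsl3 shares 244 exon bases with Utp14b on the same strand, which also rose (0.40, 0.044). Elovl2 (-0.44, 0.0023), an elongase, and Thrsp (-1.22, 0.0027), a paralogue of Mid1ip1, fell, Thrsp from 45.8 ± 17.3 to 19.4 ± 3.34 counts. In β-Mfn1KO and β-Mfn2KO none of the 63 passed.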

How the data were processed

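Islet RNA had been sequenced by the authors as paired-end reads. The submitters' processing notes name cutadapt 2.3, FastQC 0.11.8, STAR 2.6.1b, RSEM 1.3.1 and DESeq2 1.26.0, with genome build GRCm38. The values used are the deposited estimated counts per gene, which the authors made with RSEM and gave as whole numbers. The deposited depth-normalised signal table, which the authors made by dividing these counts by DESeq2 normalization factors, served only as an alternative scaling, where values from a count of 0 (23.95% of all) took the library's median factor.

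Counts of 28632 genes in 20 libraries were scaled with TMM and fitted in 1 edgeR 4.0.16 quasi-likelihood model (R 4.3.3) with 1 coefficient per genotype and no filter. Adjusted p-values are Benjamini-Hochberg values over all genes, and a gene passed at an adjusted p under 0.05. The SE is that of the log2 fold change, and intervals are 95% intervals from the fit. Normalised counts are counts at the mean effective library size. Levels between genes are CPM per kilobase of exon, and the well-expressed genes are the 15267 kept by edgeR's filterByExpr, which were also fitted on their own. DESeq2 1.42.0 was an alternative. The procedure was tested on simulated data. The study gives n as mice and the labels do not say it, so p-values measure the spread between these libraries. Per-library values were given for regulators, for up to 8 sterol and 6 fatty acid members with the smallest adjusted p in β-Mfn1/2DKO against Ctrl, and for members passing in another comparison. Of each further list the 4 with the smallest adjusted p were named. The members, lists and tests were chosen with earlier results of these data known. Figures were drawn with Matplotlib 3.10.9.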

Additional observations from a re-analysis of the deposited data

Results flagged for a closer look

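Within genotypes, 6 of 140 tests of the highest and lowest library of a member found a library far from the others (Dixon's test at the 95% level), where chance gives about 1 in 20. Mvk stood at 613.9 normalised counts in Ctrl library 3 against 459.4 to 512.9 in the other controls. Fdft1 stood at 2449 in β-Mfn2KO library 1 against 2156 to 2203 in the rest of its group. In β-Mfn2KO library 3, Nsdhl was low at 403.8 (others 502.6 to 533.0) and Me1 was high at 2627 (others 1992 to 2099). In β-Mfn1/2DKO library 5, Sqle stood at 5939 (others 7516 to 7858) and Elovl6 at 1123 (others 1481 to 1616), and this library had the most acinar RNA of all 20.

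The effect of losing Mfn1 differed between islets with and without Mfn2, by the interaction term at an adjusted p under 0.05, for 11 members. On the log2 scale the difference was -0.51 for Hmgcs1, -0.78 for Idi1, -0.45 for Lss, -0.58 for Msmo1, -0.43 for Ebp and -0.59 for Stard4 in the sterol arm. It was -0.69 for Srebf1, -0.63 for Insig1 and 0.27 for Scap among the regulators, and -1.10 for Scd2 and -0.37 for Elovl5 in the fatty acid arm.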

How the results depend on the processing

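In β-Mfn1/2DKO against Ctrl, 10 sterol and 6 fatty acid members passed. Scaling by total counts moved the median log2 fold change of all genes from 0.06 to 0.19 and left 6 and 3. There 12 of the 35 members passed (9 lower, 3 higher), and 6342 of all 28632 genes did (949 lower, 5393 higher). Depth class as a covariate left 0 and 1, with 728 of all genes passing. Against β-Mfn2KO, where 15 passed, DESeq2 gave 23, depth class 8 and the deep libraries alone 5. Of all genes 5063, 1683 and 1805 passed in these 3 fits. The interaction, which passed for 11, did so for 7 under total counts and for 5 with depth class (2292 and 911 of all genes). Testing only well-expressed genes gave 24 members in β-Mfn1/2DKO against Ctrl, of which 21 were lower. With any 1 library left out there were 7 to 11 sterol members, 5 to 6 fatty acid members, 11 to 17 members against β-Mfn2KO and 9 to 13 interactions, and 0 members in either single knockout throughout. Of all genes 3850 to 5086 passed in these fits against Ctrl, 2809 to 3871 against β-Mfn2KO and 1228 to 1847 for the interaction. Of the members, 5 lost their call without some library: Fdft1 without any of 9 and Fads2 without any of 12, Dhcr7 without Ctrl 4 or 5, β-Mfn2KO 5 or β-Mfn1/2DKO 2, 3 or 5, Msmo1 without Ctrl 1 or β-Mfn1/2DKO 3 or 5, and Acacb without β-Mfn1/2DKO 5 (0.89, adjusted p = 0.058). Calls were also gained. Of the 11 alternative fits Cyp51 passed in 6, and Mvk, Sc5d, Srebf2 and Scd1 in 3 each. Insig2 passed in 2, and Tm7sf2 and Acly in 1 each. With 1 library left out, Cyp51 passed in 3 fits and Tm7sf2, Sc5d and Scd1 in 1 each. Replicate numbers were not used to pair the libraries in the main fit, and their meaning is not given in the sources used here. The deviations of same-numbered libraries had a mean correlation of 0.125, against -0.027 for libraries of other numbers. Of 27 same-numbered pairs, 16 were correlated above 0.1 (-0.13 to 0.33), and 9 of 20 libraries correlated best with their own number. Whether the numbers mark pairs was not tested. A replicate block gave 11 sterol and 7 fatty acid members, 17 members against β-Mfn2KO, 11 interactions and 0 in either single knockout. Of all 28632 genes 4950 passed there against Ctrl, 3940 against β-Mfn2KO and 1457 for the interaction. Among the named genes of the other lists, the authors' factors also ended the calls of Mbtps2, Osbpl9, Stard3, Fnta, Mid1ip1, Acsl3 and Dgat1. The direction turned in members that did not pass. Under total counts these were Acat2 (0.071), Mvd (0.051), Sqle (0.049), Nsdhl (0.067), Srebf2 (0.0033), Insig2 (0.051), Fads1 (0.11) and Me1 (0.081). With depth class they were Srebf2 (0.044), Acly (0.14), Elovl6 (-0.026) and Me1 (0.022). Elovl6 was -0.015 with DESeq2's size factors, -0.013 with the authors' factors, -0.014 in DESeq2 and -0.0030 among well-expressed genes. Fads1 was 0.021 without β-Mfn1/2DKO libraries 4 and 5. With 1 library left out, Mvd ran from -0.14 to 0.0012, Elovl6 from -0.012 to 0.097 and Fads1 from -0.046 to 0.016. No Ctrl library reached the β-Mfn1/2DKO totals, which limits that comparison, and the causes of these differences were not tested.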

Other observations

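Male and female islets were compared within genotypes after the data had been seen, in the same edgeR fit with sex added. None of the 35 members passed the test, while 36 of the 28632 genes did. An unadjusted p below 0.05 was found for 10 of the 35 members and for 3045 of the 28632 genes. The log2 difference of male from female islets was below 0 in 29 of the 35 members, with a median of -0.08 over the 19 sterol genes and of 0.01 over all genes. Lss (-0.22, adjusted p = 0.058), Msmo1 (-0.22, 0.17) and Scd2 (-0.25, 0.18) were among the lower ones. Between β-Mfn1/2DKO and Ctrl means, Scd1 had a log2 ratio of -1.13 in females and -0.17 in males and Acacb of 0.46 and 2.19, and both libraries rich in acinar RNA came from males.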
